A study of Caenorhabditis elegans with 2 samples.

Results

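Regions at tRNA genes were chosen by position from the authors' relaxed list of AHA-1 peaks and background for both replicates pooled. A region was a member when its summit fell within a window around the start of a gene annotated as tRNA, reaching 1000 bp upstream and 200 bp downstream, and 324 of 30000 regions met this rule. They lay at 317 of the 612 nuclear tRNA genes. The series measured, by chromatin immunoprecipitation and sequencing (ChIP-seq), where AHA-1 tagged with green fluorescent protein lies on the genome of whole, mixed-sex L1 larvae of C. elegans. Both samples were replicates of strain OP124, in which the transgene wgIs124 encodes the tagged protein in an unc-119(ed3) background, and there was no second condition. The labels call the replicates biological and give fragments of 150 to 350 bp. They give the age as unknown and do not say how the larvae were grown, whether the replicates were separate cultures or which strain the control came from, and the read depth is unknown.

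AHA-1 corresponds to mammalian ARNT, with which other basic helix-loop-helix PAS transcription factors pair, and dimers with ARNT bind short DNA words such as ACGTG and GCGTG. A tRNA gene is transcribed by RNA polymerase III, not by RNA polymerase II, and its promoter lies inside the gene. The factor TFIIIC binds the internal A box and B box, and TFIIIB is placed just upstream of the start. Such genes are short, strongly transcribed and present in many identical copies. The 612 genes were 64 to 122 bp long, with a median of 72 bp.

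The pooled signal of each region is the authors' own value relative to a control, on a scale that is not stated, so it ranks regions within a list. The members' signals ran from 2.88 to 32.7, with a median of 4.82 against 4.27 over all 30000 regions. The 530 regions that the authors kept after thresholding by the irreproducible discovery rate are called thresholded peaks below. Of the 324 members, 6 were thresholded peaks (1.85%), close to the share of 1.77% over the whole pooled list. Their summits lay in 2 kinds of place, 3 beside a tRNA gene and 3 at a distance from one. Regions and genes are not replicates, so counts and medians are set beside those of all regions and no test was made.

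The sequences below show that contrast at the summits of the thresholded members, on ce11 and 5′ to 3′ on the strand of the tRNA gene. In the first set the summit is base 51 of each run and the tRNA gene is in capitals, so the letters between base 51 and the capitals are the sequence from the summit to the gene start. The stretches are chrIII:11066848-11067015, chrX:9467729-9467899 and chrX:14063946-14064129, all on the minus strand.
W09D6.t2, tRNA-Pro: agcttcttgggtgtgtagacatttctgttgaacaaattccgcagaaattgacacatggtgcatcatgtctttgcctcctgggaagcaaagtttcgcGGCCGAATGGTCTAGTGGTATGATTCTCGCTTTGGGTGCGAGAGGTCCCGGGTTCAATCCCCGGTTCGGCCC
ZK899.t1, tRNA-Pro: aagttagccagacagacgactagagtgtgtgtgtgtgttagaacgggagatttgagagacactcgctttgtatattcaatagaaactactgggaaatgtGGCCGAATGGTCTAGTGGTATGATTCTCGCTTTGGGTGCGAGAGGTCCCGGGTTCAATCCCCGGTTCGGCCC
C33G3.t2, tRNA-Lys: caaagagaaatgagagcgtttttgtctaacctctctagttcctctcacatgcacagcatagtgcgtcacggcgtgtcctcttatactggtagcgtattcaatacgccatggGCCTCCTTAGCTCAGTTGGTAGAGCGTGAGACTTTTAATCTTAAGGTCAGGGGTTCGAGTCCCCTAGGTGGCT
The capitals of the first 2 lines are the same 72 bases, and the lower-case flanks, which hold the summits, are not. In both genes the B box word GTTCNANNC starts at base 52 of the gene.

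For comparison, C43G2.t1 had the strongest member with its summit inside a tRNA gene. The stretch is chrIV:6556818-6556945 on the plus strand, the summit is base 78, and the gene of 84 bp is again in capitals.
C43G2.t1, tRNA-Leu: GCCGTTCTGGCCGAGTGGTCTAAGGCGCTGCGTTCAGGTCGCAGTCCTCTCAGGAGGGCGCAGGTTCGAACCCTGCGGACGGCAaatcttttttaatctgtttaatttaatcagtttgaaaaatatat
In the second set of thresholded members the tRNA gene lay outside the 101 bases shown, the summit is base 51, and capitals mark the word TATAAA on either strand. The stretches are chrV:8500471-8500571 on the minus strand, and chrX:8835909-8836009 and chrV:14688647-14688747 on the plus strand.
ZK994.t2, tRNA-Lys: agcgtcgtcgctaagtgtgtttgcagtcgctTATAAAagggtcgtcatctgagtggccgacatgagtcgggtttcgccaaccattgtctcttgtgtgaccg
C28G1.t1, tRNA-Glu: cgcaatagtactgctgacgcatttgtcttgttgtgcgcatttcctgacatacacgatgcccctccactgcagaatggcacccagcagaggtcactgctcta
C47E8.t1, tRNA-Tyr: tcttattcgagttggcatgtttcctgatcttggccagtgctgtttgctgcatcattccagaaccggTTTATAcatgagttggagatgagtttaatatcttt
None of the 3 windows of this set held ACGTG or GCGTG. Of the 6 thresholded members, C33G3.t2 was the one with such a word, GCGTG, within 50 bp of its summit.

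The thresholded member nearest to a tRNA gene was the region at the tRNA-Pro gene W09D6.t2, on chromosome III from 11066807 to 11067122. Its summit was 46 bp upstream of the gene start, and the window of a second tRNA-Pro gene, W09D6.t1, held it too. Its pooled signal was 23.9 (rank 320 of 30000), and the replicate lists gave 20.6 in replicate 1 (rank 200 of 24611) and 3.01 in replicate 2 (rank 8163 of 18195). It ranked high in replicate 1 and not in replicate 2. The gene lies in an intron of rsa-2, on the opposite strand. At the tRNA-Pro gene ZK899.t1, outside protein-coding genes on the X chromosome, the region from 9467691 to 9468006 had its summit 49 bp upstream and a pooled signal of 20.6 (rank 432). Its signals were 9.49 in replicate 1 (rank 909) and 9.46 in replicate 2 (rank 290), so both replicates placed it high. The region at the tRNA-Lys gene C33G3.t2, on the X chromosome from 14063921 to 14064236, had its summit 61 bp upstream and a pooled signal of 19.4 (rank 479). Its signals were 15.0 in replicate 1 (rank 382) and 2.63 in replicate 2 (rank 11191), again high in replicate 1 and low in replicate 2. The start nearest to this summit was that of the non-coding RNA gene C33G3.12, 16 bp away.

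The other thresholded members lay closer to genes of other kinds. The strongest member of all spanned bases 8500363 to 8500678 of chromosome V, with a pooled signal of 32.7 (rank 166) and signals of 15.2 in replicate 1 (rank 375) and 14.7 in replicate 2 (rank 104). It belonged to the window of the tRNA-Lys gene ZK994.t2, 885 bp away, but its summit was 58 bp upstream of the snoRNA gene ZK994.7, and both genes lie within the span of pxn-1, a peroxidasin gene. The region at the tRNA-Glu gene C28G1.t1, on the X chromosome from 8835801 to 8836116, had a pooled signal of 30.8 (rank 189). Its signals were 21.8 in replicate 1 (rank 165) and 4.30 in replicate 2 (rank 2856). Its summit was 154 bp upstream of the tRNA gene, and it was also in the promoter windows of C28G1.2, 57 bp downstream of the summit, and of the exocyst gene sec-15, 244 bp away. The nearest start was that of the non-coding RNA gene C28G1.9, 17 bp away. The region at the single-copy tRNA-Tyr gene C47E8.t1 spanned bases 14688539 to 14688854 of chromosome V, and its pooled signal was 20.7 (rank 425), with 10.2 in replicate 1 (rank 797) and 7.10 in replicate 2 (rank 597). Its summit was 835 bp upstream of the tRNA gene and 81 bp downstream of the start of the protein-coding gene C47E8.11, in an exon. The weakest thresholded member had 19.4 and the strongest member outside the thresholded list 16.7. Over the whole pooled list these values were 18.4 and 18.3, so the 530 thresholded peaks are the 530 regions of highest pooled signal.

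Below the threshold, the strongest members lay mostly on tRNA genes or beside them. Of the 20 members of highest signal, 14 were not thresholded, and 13 of these 14 had their summit in a tRNA gene or within 100 bp of one. The region at the tRNA-Glu gene Y104H12A.t1, in an intron of the nuclear hormone receptor gene nhr-41, had a pooled signal of 16.7, with 7.43 in replicate 1 and 8.89 in replicate 2. Its summit was 63 bp upstream of the tRNA start. F46G11.t2 and F46G11.t1, which are tRNA-Pro genes, shared a region of pooled signal 16.4 that was listed in replicate 1, at 10.6, and not in replicate 2. The tRNA-Thr gene ZK563.t1 had a region of 16.4 with its summit 7 bp upstream, at 12.1 in replicate 1 and 3.89 in replicate 2. Each replicate list has its own scale, so levels are not compared between replicates.

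At C43G2.t1, whose sequence is given above, the pooled signal was 15.6, with 5.41 in replicate 1 and 8.54 in replicate 2. Further members of this group lay at the tRNA-Pro gene F02H6.t1 (15.5), the tRNA-Tyr gene C02B4.t2 (14.9), the tRNA-Lys genes K08E7.t1 (14.5) and B0350.t1 (14.5), and the tRNA-Leu gene C04A11.t1 (14.0). The weaker ones lay at the neighbouring genes M02F4.t2 and M02F4.t1 (13.8), at C04E7.t1 (13.6), F52H2.t2 (13.5) and Y39B6A.t9 (13.1). These genes carry tRNAs for Glu, Gly, Leu, Asn and Phe. At 3 of the genes the start of a non-coding RNA gene was nearer to the summit than that of the tRNA gene, namely C43G2.30 (14 bp) at C43G2.t1, F02H6.72 (5 bp) at F02H6.t1 and B0350.73 (13 bp) at B0350.t1. The single exception to closeness among the 14 was M01E5.t1, a tRNA-Lys gene whose region had a pooled signal of 15.8. Its summit was 124 bp upstream of the tRNA gene and 8 bp upstream of sls-2.9, a spliced leader RNA gene. Replicate 1 listed 20 of the 20 strongest members and replicate 2 listed 18.

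Summits were concentrated on the tRNA genes and the 100 bp before them, a feature that the choice of members did not use. Around the 612 starts, 77 summits lay in the 100 bp before a start and 71 in the 100 bp from it onward, counting a summit once for each gene. In 20 bins of 100 bp between 1000 and 2000 bp away, on both sides, the count was 15 to 24 with a mean of 19.1. Per 100 genes, this was a mean of 12.1 summits in each of the bins beside the start against 3.12 in a distant bin, a ratio of 3.87. At protein-coding genes the same ratio was 1.33, with 3.91 summits per 100 genes beside the start and 2.94 in a distant bin, and the highest bin, at 5.74, lay 101 to 200 bp upstream. At snoRNA genes the ratio was 3.37, and the summits were on 1 side, with 19.7 per 100 genes in the 100 bp before the start and 6.07 in the 100 bp after it. The profile of tRNA genes had no such side.

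**Figure D1:**
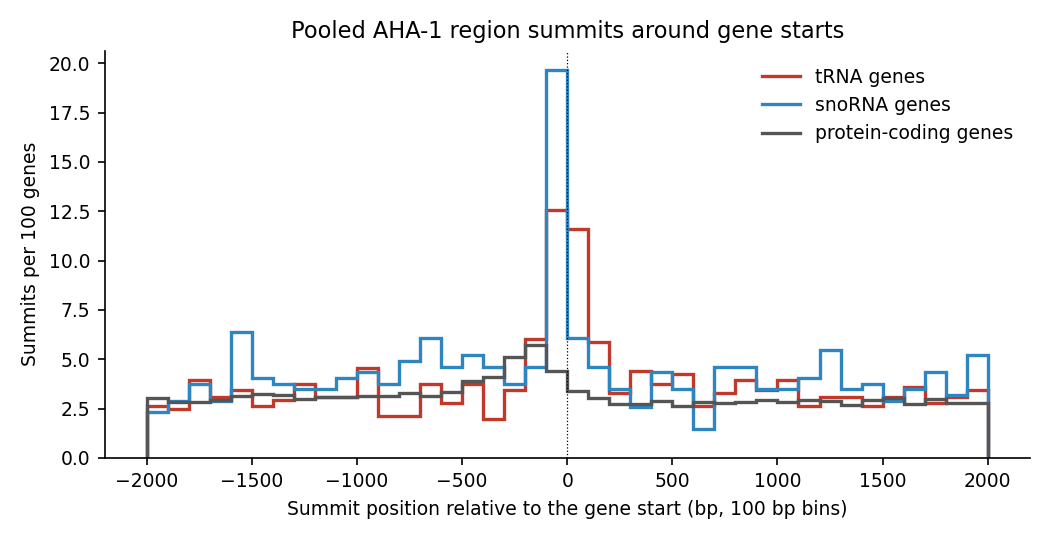
Summits of the 30000 pooled regions per 100 genes, in bins of 100 bp (x axis, bp relative to the gene start, negative upstream) around the starts of tRNA, snoRNA and protein-coding genes. The tRNA line rises to 12.6 and 11.6 summits per 100 genes in the bins before and after the start, from a mean of 3.12 in the distant bins.

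In all, 167 of the 324 members (51.5%) had their summit in a tRNA gene or within 100 bp of one, and 157 lay farther away. The summits of the 167 ranged from 97 bp upstream to 162 bp downstream of the start of the closest gene, with a median 19 bp downstream and quartiles of -29 and 53 bp. The B box word GTTCNANNC was found on the coding strand of 587 of the 612 tRNA genes (95.9%) with a median first base of 53, counted from the gene start. Within 50 bp of the summit the word was present at 78 members (24.1%) and at 3.55% of all pooled regions. Members were chosen by their place at tRNA genes, most of which hold the word, so the choice itself raises this share. The word was at 71 of the 167 on or beside a tRNA gene (42.5%) and at 7 of the 157 farther away (4.46%). This split is by closeness to a tRNA gene, so it too raises the first share. Of the 167, 74 summits lay before the start and 93 at it or after it. Among tRNA genes, 169 of 612 (27.6%) had a summit on the gene or within 100 bp.

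Members on or beside a tRNA gene also had the higher median signals, but not a higher share of thresholded peaks. That share was 1.80% on or beside a tRNA gene (3 of 167) and 1.91% farther away (3 of 157). No member with the summit inside a tRNA gene was a thresholded peak. The 56 members with the summit inside a tRNA gene had a median pooled signal of 6.83 (quartiles 4.24 and 9.29), and the 111 at 1 to 100 bp had 5.57 (quartiles 3.94 and 8.89). The 157 farther members had 4.35 (quartiles 3.54 and 5.54), near the median of 4.27 over all pooled regions. The ranges of the 3 groups overlapped throughout, and each group held regions with signals of about 3. By chromosome, the median on or beside a tRNA gene ran from 4.44 on I (17 members) to 7.09 on II (12 members). On I it was below the 4.67 of all 37 members there, and on each other chromosome it was above that of all members there. When the members were ordered by signal, 65 of the strongest 81 (80.2%) lay on or beside a tRNA gene, then 39 of 81, 32 of 81 and 31 of the weakest 81 (38.3%). The strongest 81 began at a signal of 6.98. Of the members, 100 ranked among the 5000 strongest pooled regions (30.9%), where 16.7% is the share by construction, and 21 ranked among the 1000 strongest (6.48% against 3.33%).

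**Figure D2:**
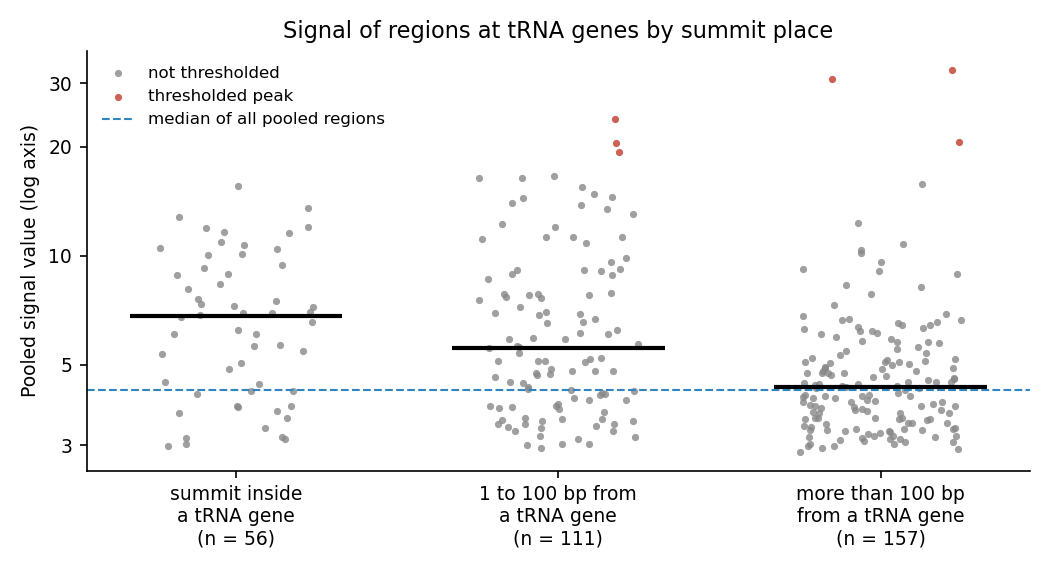
Pooled signal (log axis) of each of the 324 members by the place of its summit, with thresholded peaks in red, black bars at group medians and a dashed line at the median of all pooled regions, 4.27. Medians fall from 6.83 inside tRNA genes to 5.57 beside them and 4.35 farther away, while 3 of the 6 thresholded peaks lie in the last group.

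Agreement between replicates was partial. Of the 324 members, 80 (24.7%) overlapped by at least 1 bp a region of both replicate lists, compared with 15.3% of all pooled regions. Another 133 overlapped a region of replicate 1 alone, 63 of replicate 2 alone, and 48 neither. Where several replicate regions overlapped a member (22 members in replicate 1 and 8 in replicate 2), the strongest was taken, which can be a neighbour. The share listed in both was 32.3% for members on or beside a tRNA gene (54 of 167) and 16.6% for those farther away (26 of 157). It was 59.3% among the strongest 81 members and 7.41% among the weakest 81. These shares use overlap by at least 1 bp. With overlap by at least 50% of both regions, 59 members (18.2%) were listed in both. With replicate summits within 100 bp, 51 (15.7%) were. The share over all pooled regions was computed for the 1 bp rule only. Among the 80 members listed in both, the Pearson correlation of log2 signals was 0.34 and Spearman's rho 0.34, and for the 4581 pooled regions listed in both these were 0.60 and 0.40. For the 54 on or beside a tRNA gene they were 0.17 and 0.17. These are correlations over regions of the same 2 libraries, given as descriptions.

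Applied to the list of replicate 1 alone, the rule found 284 regions, 157 of them (55.3%) on or beside a tRNA gene. In the list of replicate 2 it found 191 regions, 92 of them (48.2%) on or beside one. The profile against distant bins was computed for the pooled list.

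**Figure D3:**
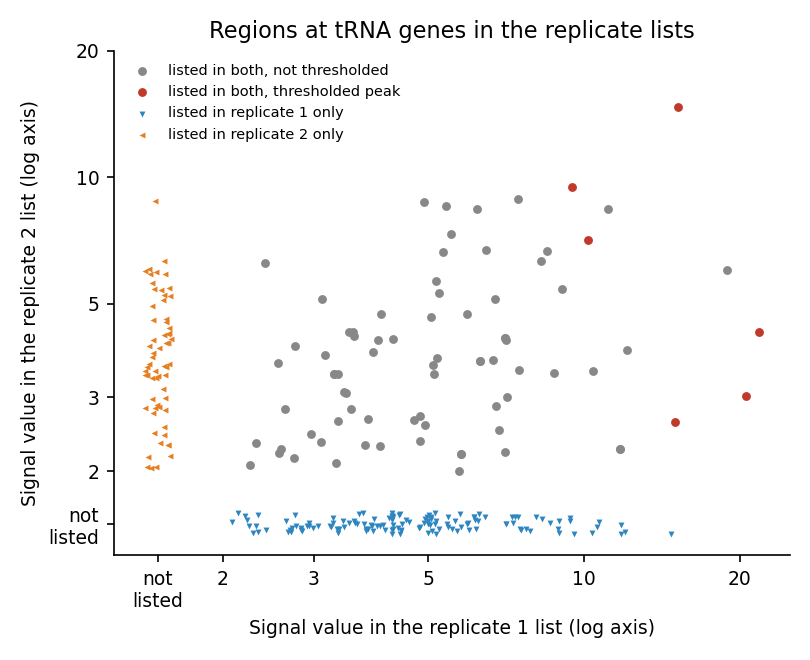
Signal of members in the lists of replicate 1 (x axis) and replicate 2 (y axis), both on log axes, with members listed in 1 replicate placed at the margin of the other. The 6 thresholded members lie at 9.49 or more in replicate 1, and 3 of them lie between 2.63 and 4.30 in replicate 2.

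By the amino acid of the tRNA, taken from RefSeq for 607 of the 612 genes, no class stood without regions except that of selenocysteine, which has 1 gene. Among the 20 classes with 10 or more genes, the share of genes with a summit on or within 100 bp ran from 16.7% (Trp, 2 of 12 genes) to 38.7% (Val, 12 of 31), around 27.6% for all tRNA genes. Cys (5 of 13) and Leu (15 of 39) were at 38.5%, and Ile (5 of 29) at 17.2%. With the whole window, the shares ran from 25% for Trp to 71.4% for Phe (10 of 14), around 51.8%. The median of the strongest signal per gene was highest for Lys, at 9.07 over 17 genes with a region, and lowest for Gln, at 3.77 over 17. The order of classes by signal, which was taken over the whole window, differed from the order by share. Lys was among the lowest by share, at 37.0% in the window (17 of 46) and 19.6% on or beside the gene (9 of 46). The Lys signals include the regions of ZK994.t2 and M01E5.t1, described above as nearer to other genes.

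**Figure D4:**
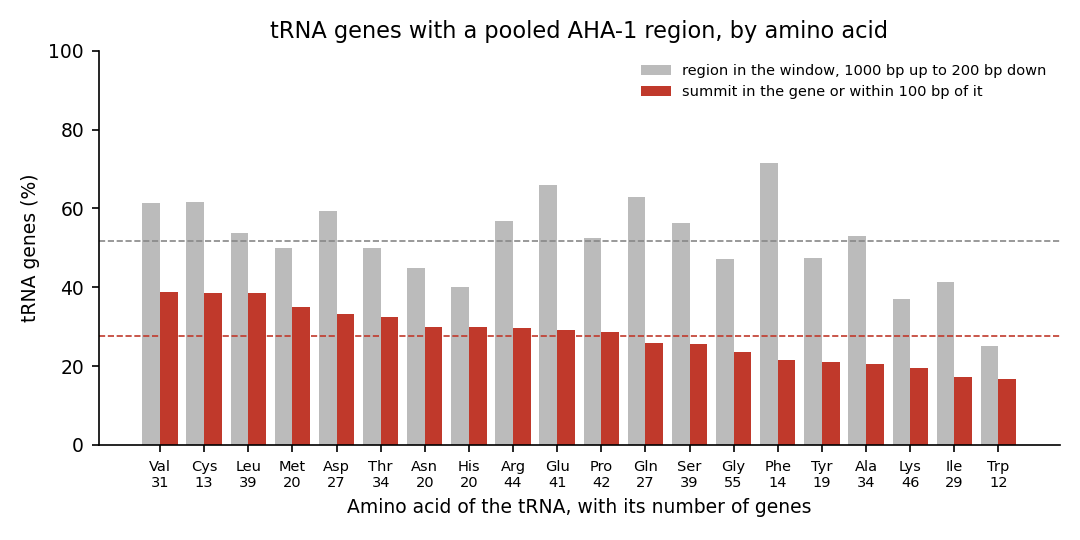
Share of tRNA genes of each amino acid with a member in the window (grey) and with a summit in the gene or within 100 bp (red), with the number of genes under each class and dashed lines at 51.8% and 27.6% for all tRNA genes. Red bars run from 38.7% for Val to 16.7% for Trp, and the grey bars follow another order.

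Identical copies of a tRNA gene were found with and without a member. The 612 genes held 200 distinct sequences, and 469 genes shared theirs with at least 1 other gene. The tRNA-Pro sequence printed above for W09D6.t2 and ZK899.t1 is present in 24 copies, and 14 of them had a member, with strongest signals from 3.54 (T22F3.t1) to 23.9 (W09D6.t2 and W09D6.t1) and a median of 9.25. The other 10 copies, among them ZK970.t1, R11G10.t2 and F23D12.t2, had none. Of the 14 copies of the tRNA-Lys sequence of C33G3.t2 and ZK994.t2, 6 had a member (3.87 to 32.7) and 8 had none. Of the 15 copies of the tRNA-Glu sequence of C28G1.t1 and Y104H12A.t1, 11 had one (3.29 to 30.8) and 4 had none. The highest values of these Lys and Glu copies belong to the regions described above whose summits lay 885 bp from ZK994.t2 and 154 bp from C28G1.t1, nearer to other genes. Counting only summits on a copy or within 100 bp of it, 9 of the 24 Pro copies, 3 of the 14 Lys copies and 6 of the 15 Glu copies had a region. Genes with 6 or more identical copies had a summit on or beside them in 116 of 387 cases (29.97%), those with 2 to 5 copies in 25 of 82 (30.5%), and single-copy genes in 28 of 143 (19.6%). How reads that match several copies were treated is not given in the sources used here, and its part in these values was not tested.

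Some members served several tRNA genes and some genes had several members. There were 284 members in the window of 1 tRNA gene, 33 in those of 2 and 7 in those of 3. The strongest of the last kind lay at F08G5.t1, F08G5.t2 and F08G5.t3 (pooled signal 9.13), followed by R11.t1 to R11.t3 (7.92), K01A12.t5, K01A12.t1 and K01A12.t2 (6.86), C12C8.t2, C12C8.t5 and C12C8.t3 (5.68), and F22F1.t2 to F22F1.t4 (4.73). Each of these 5 was listed in 1 replicate only. Of the genes, 265 had 1 member, 50 had 2, and C06G4.t1 (tRNA-Phe) and F22G12.t1 (tRNA-Val) had 3, with strongest signals of 6.46 and 4.93. Genes with another tRNA gene within 1000 bp had a summit on or beside them in 55 of 236 cases (23.3%), and the others in 114 of 376 (30.3%).

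The X chromosome carries 45.1% of the tRNA genes and held 139 of the 324 members (42.9%), against 18.3% of all pooled regions. Of the 276 tRNA genes on X, 82 had a summit on or beside them (29.7%), and of the 336 on autosomes 87 (25.9%), with a range from 19.2% on chromosome V (15 of 78) to 32.8% on III (21 of 64). The median signal of members was 5.10 on X and 4.62 on autosomes, and over all pooled regions it was 4.29 and 4.26. Inside and outside protein-coding genes the shares were close, with 78 of 283 tRNA genes inside introns (27.6%) and 87 of 319 outside protein-coding genes (27.3%) having a summit on or beside them. By the place of the summit itself, the median signal was 5.31 for 111 members in protein-coding introns, 4.90 for 169 outside protein-coding genes and 4.11 for 44 over a protein-coding exon. Among the intronic genes, the count was 40 of 160 (25%) for those on the strand of the host gene and 38 of 123 (30.9%) for those on the other strand.

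Most members lay outside protein-coding promoter windows. The summits of 81 members (25%) also lay in the window of the same extent around a protein-coding transcript start, below the share of 31.8% over all pooled regions. These 81 had a median signal of 5.13 and the 243 outside such windows 4.75, while pooled regions in and outside protein-coding windows had 4.53 and 4.16. Among the members on or beside a tRNA gene, the 132 outside protein-coding windows had a median of 6.11 and the 35 inside them 5.13. Farther from tRNA genes the order was the other way, at 4.11 over 111 members outside and 5.12 over 46 inside. Named examples in both kinds of window were Y104H12A.t1 with nhr-41 (306 bp), C43G2.t1 with try-3, a trypsin-like protease gene (260 bp), and C04E7.t1 with sor-3 (329 bp). The nearest start of any gene was that of a tRNA gene for 223 members, of a non-coding RNA gene for 59 and of a protein-coding gene for 30. Of the genes themselves, 51.8% of tRNA genes had a pooled region in the window, compared with 39.7% of protein-coding genes and 58.7% of snoRNA genes (203 of 346).

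Words of ARNT dimers were found at a larger share of members than of all pooled regions only when words inside the tRNA genes were counted. Within 50 bp of the summit, on either strand, ACGTG or GCGTG was present at 74 of the 324 members (22.8%), against 15.1% of all pooled regions, 26.2% of the regions at snoRNA genes and 42.3% of the thresholded peaks. Of the 74, 31 had a word within a tRNA gene and 43 had a word only outside tRNA genes. The 43 are a smaller share of the 324 members than 15.1%. GCGTG was present at 47 members (14.5%, against 6.83% of pooled regions and 18.1% of regions at snoRNA genes) and ACGTG at 34 (10.5%, against 9.23%). On or beside tRNA genes, GCGTG was at 34 of 167 (20.4%), and farther away at 13 of 157 (8.28%). In 27 of the 47 members with GCGTG, a copy of the word lay within a tRNA gene, and these 27 were all among the 34. Closeness to a tRNA gene itself raises the share, so the difference between 34 of 167 and 13 of 157 is not a separate result. The word occurs in 178 of the 612 tRNA genes, and 55 of these (30.9%) had a summit on or beside them, against 114 of the 434 without it (26.3%). The windows of members also held more G and C, with a median of 41.6% against 34.7% over all pooled regions. The median was 47.5% on or beside a tRNA gene, 35.6% farther away and 44.6% for regions at snoRNA genes. The part of base composition in the word counts was not tested. Members with either word had a median signal of 5.62 and those without 4.71. Over all pooled regions these medians were 4.65 and 4.21, and at snoRNA genes 9.11 and 5.63. For members farther from a tRNA gene they were 4.61 and 4.32. Among the 20 strongest members the order was the other way, at 14.0 with a word and 16.4 without. GAGAGA was found at 38 members (11.7%, against 7.78% of pooled regions), TATAAA at 34 (10.5%, against 11.4%) and the palindrome CACGTG at 7 (2.16%, against 1.93%). CACGTG contains ACGTG, so these counts overlap.

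Compared with regions at snoRNA genes chosen by the same window, members at tRNA genes were weaker. The 237 regions at snoRNA genes had a median signal of 6.10, and 23 of them (9.70%) were thresholded peaks. The 2 groups shared 2 regions, one of them the strongest member, at ZK994.t2 and ZK994.7. The 9528 regions in protein-coding promoter windows had a median of 4.53, and 377 (3.96%) were thresholded. Against these, the tRNA members had a higher median and a lower thresholded share, and their highest signal of 32.7 compared with 89.3 at snoRNA genes and 118 at protein-coding promoters.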

How the data were processed

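Peak lists on ce11 were used for the pooled replicates, each replicate and the thresholded set. According to the authors' deposited text on each list, it was made from alignments of 1 or both replicates and a control, and the authors kept the thresholded peaks with the irreproducible discovery rate. The peak caller, aligner, threshold and depth are not given in the sources used here. Deposited values are a signal and a −log10 q-value per region. The q-value reached a ceiling of 3.33 shared by 1074 pooled regions, so signal was used for ranking.

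Genes came from Ensembl release 115 (WBcel235), and genome sequence and amino acids from RefSeq on the same assembly. All 612 tRNA genes had the same position in both. Python 3.11.15 with pandas 2.3.3 and numpy 2.4.6 was used, and the window, overlap and word functions were checked on made-up regions. Coordinates are 1-based, so summits are column 2 plus column 10 plus 1. Protein-coding windows used every transcript start, except in the profile and the share of genes with a region, which used gene starts. Words were sought on both strands of the 50 bp to either side of a summit. The members and lists were chosen with earlier results of these data known. Named regions are the thresholded members, the 20 of highest signal, and the 5 genes and 5 regions with most partners. The examples of identical copies and the non-coding RNA genes nearest to summits were named after their values were seen. Lists on ce10 were not used. Alternatives were other windows, nearest starts, members outside protein-coding windows, single replicate lists, other overlaps and other distances.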

Additional observations from a re-analysis of the deposited data

How the results depend on the processing

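Of 50 values recomputed under 13 alternatives, 33 stayed within a set limit and 17 moved beyond it. For a count the limit was 1.5 times the count reported. For the median signal it was the standard deviation of the replicate medians (0.58). The median signals of the single replicate lists are among the 17, although their scale differs from that of the pooled list. Wider windows (2000 bp upstream to 500 bp downstream) gave 511 members, 12 of them thresholded and 146 in protein-coding windows. The narrower window (500 to 100 bp) gave 52 in protein-coding windows, of 216 members. Limiting members to those whose nearest start was that of a tRNA gene left 223, of which 2 were thresholded, 49 listed in both replicates and 42 in protein-coding windows. In the stronger 265 of the thresholded peaks there were 2 members. With replicate summits required within 100 bp, 51 members were listed in both. Summits strictly inside tRNA genes numbered 56. Words sought within 100 bp were found at 126 members.

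Lists of single replicates gave 191 to 284 members, 196 to 287 tRNA genes, median signals of 3.07 to 3.89, 59 to 73 members in protein-coding windows, 92 to 157 on or beside a tRNA gene and 36 to 61 with a word. The lower values are those of replicate 2, which has fewer regions, except that its share in protein-coding windows was higher (30.9% against 25.7%). The signal scale differs between lists, so the medians cannot be set against the pooled 4.82. The share on or beside a tRNA gene (51.5%) depended on the window, at 32.7% with the wider and 68.1% with the narrower one. It was 48.2 to 58.3% with either replicate list, with nearest starts and outside protein-coding windows. No paired analysis was possible because there is 1 group. The read depth behind these regions is unknown, so no interval for counting error was given.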
